A study of Mus musculus with 6 samples.

Results

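The genes described here are 10 markers of the granule cell lineage of the dentate gyrus, chosen by name as 5 genes of mature granule cells (Prox1, Dsp, C1ql2, Calb1 and Tdo2) and 5 genes of immature neurons (Dcx, Sox11, Igfbpl1, Eomes and Neurod1). Each gene comprises all rows of the isoform table that carry its symbol, which gave 27 of 133944 isoforms and 10 of 53354 gene symbols. Of the 27 isoforms, 14 belonged to the mature and 13 to the immature genes. RNA from whole hippocampi of 6 mice, each 3 months old and on a C57BL/6 background, was sequenced with 1 library per mouse. The 3 N-cre mice carried Nes-cre, a Cre transgene driven by the nestin promoter. The 3 N-cre;Fox1 mice carried the same Cre and 1 R26-Rbfox1 flox allele, an Rbfox1 cDNA in the Gt(ROSA)26Sor locus that the CAG promoter transcribes after Cre removes a STOP cassette. Nes-cre was thus present in all 6 mice, and no mouse without Cre was analysed here. In the study a reporter showed Cre activity in granule cells of the dentate gyrus and in pyramidal cells of CA1 and CA3.

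The dentate gyrus is among the few regions of the adult mammalian brain where neurons are still formed. Radial glia-like stem cells give rise to dividing progenitors that express Eomes, then to neuroblasts and immature neurons that express Dcx and Sox11, and finally to granule cells that express Prox1 and Calb1. Granule cells send mossy fibres to CA3. Rbfox1 is an RNA-binding protein of neurons that binds the element UGCAUG in introns and 3′ untranslated regions and acts on splicing and on the stability of transcripts.

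No gene of the granule cell lineage differed by genotype past the threshold, which was set at 0.05 for the adjusted p of edgeR's quasi-likelihood test. The count was 0 of 10 genes and 0 of the 16 isoforms of these genes that passed the filter on low counts. The background was low as well, since 0.0264% of 18924 genes and 0% of 50556 isoforms passed this threshold. At an unadjusted p under 0.05 the count was 1 of 10 genes (C1ql2) and 0 of 16 isoforms, beside 6.19% of all genes and 4.78% of all isoforms. The mice of the groups did not overlap for 0 of 10 genes and 0 of 16 isoforms, beside 12.1% of all genes and 11.5% of all isoforms. The median log2 fold change of N-cre;Fox1 over N-cre mice was 0.01 for the mature genes and -0.04 for the immature genes, beside 0.00 over all genes tested. These counts describe whole hippocampus, in which fewer cells of a type and less RNA per cell cannot be told apart.

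The libraries held 40463587 to 62141336 read pairs assigned to isoforms, of which 0.0327% to 0.0378% fell on the 10 genes. Normalized counts are expected read pairs per gene, summed over isoforms and scaled to a common library size by edgeR's TMM method. Rbfox1 itself had normalized counts of 15286, 14456 and 14698 in N-cre and of 15939, 13571 and 15283 in N-cre;Fox1 mice, so that this sum does not separate the labels. Xist counts were 27387 and 22347 in replicate 1 of each genotype, and 17 to 22 in the other 4 mice. Another pair of libraries stood apart in the summed level of 6 choroid plexus markers, none of which was at 0 in any mouse. These markers had a summed normalized count of 119306 in N-cre replicate 3 and 268663 in N-cre;Fox1 replicate 2, and of 1411 to 1939 in the other 4 mice. Results described as without these 2 mice come from an alternative chosen after the data were seen.

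The mature genes are described first. Prox1 (chr1:190118035-190170714, minus strand, mm10) encodes a homeobox transcription factor that gives granule cells their identity and keeps it. Its normalized counts were 3606, 4236 and 4014 in N-cre and 4640, 3810 and 4037 in N-cre;Fox1 mice. N-cre;Fox1 replicate 1 was highest and N-cre replicate 1 lowest, with the other mice in between and the groups overlapping. Its log2 fold change of 0.08 (SE 0.0914) did not pass (adjusted p = 0.961, edgeR's quasi-likelihood test). Prox1-202 held 97.9% to 99.6% of the count in every mouse, and each of the 3 annotated isoforms encodes 737 codons. The antisense gene Prox1os shares 133 nt of exon with Prox1 and had counts of 140 to 211. The strand setting of the counting was not given in the sources used here, so some of these reads cannot be assigned to a strand with certainty.

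Calb1 (chr4:15881264-15908064, plus strand) encodes calbindin, a calcium buffer of mature granule cells that is also present in some pyramidal cells and interneurons. Its counts were 6133, 6043 and 5659 in N-cre and 6500, 5281 and 5751 in N-cre;Fox1 mice. The N-cre;Fox1 mice held the highest and the lowest value, and the N-cre mice lay between them. Calb1 thus had a log2 fold change of -0.03 (SE 0.0743), at an adjusted p of 0.986 in edgeR's quasi-likelihood test. The coding isoform Calb1-201 held 97.1% to 99.3% of the count. The retained-intron isoform Calb1-202, which reads on from exon 4 through exon 5 of Calb1-201 into the next intron, had normalized counts of 38.9, 46.3 and 139 in N-cre and 178, 49.1 and 91.5 in N-cre;Fox1 mice. It was high in 1 mouse of each group, and its log2 fold change was 0.52 (SE 0.663).

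C1ql2 (chr1:120340582-120343174, plus strand) encodes a secreted C1q-like protein of the mossy fibre synapse. Its counts were 2804, 2699 and 2754 in N-cre and 3070, 2752 and 3147 in N-cre;Fox1 mice. N-cre;Fox1 replicates 1 and 3 lay above all N-cre mice, and replicate 2 lay among them. The difference came to 0.12 on the log2 scale (SE 0.0494), with a 95% interval of 0.0093 to 0.23. The unadjusted p was 0.0361 and the adjusted p 0.799 in edgeR's quasi-likelihood test over all genes, so the difference did not pass. The unadjusted p was above the threshold of 0.05 with upper quartile normalization, DESeq2's Wald test and limma-voom, at 0.0523, 0.0559 and 0.0668. In edgeR's quasi-likelihood test without the filter on low counts it was 0.00942. In the same test with single mice left out it ran from 0.000545 (N-cre;Fox1 replicate 2) to 0.161 (N-cre;Fox1 replicate 3). The adjusted p stayed at 0.228 or above under all alternatives. Without the 2 mice with high choroid plexus markers the log2 fold change was 0.18 and the adjusted p 0.368 (edgeR's quasi-likelihood test).

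C1q-like proteins bind the adhesion receptor Adgrb3 and, with neurexin 3, gather kainate receptors at the mossy fibre synapse. The paralogue C1ql3 had counts of 4040 to 4223 in N-cre against 3883 to 4660 in N-cre;Fox1 mice, with a log2 fold change of 0.06. The kainate receptor subunits Grik2 and Grik4 had log2 fold changes of 0.05 and 0.02, Adgrb3 of -0.04 and Nrxn3 of -0.0046. Of 10 genes of C1q-like proteins and their receptors, 9 were tested and 0 passed, with 5 above and 4 below 0.

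Tdo2 (chr3:81957090-81976202, minus strand) encodes a tryptophan dioxygenase that opens the kynurenine pathway and is known from liver and from granule cells. Its counts were 320, 289 and 297 in N-cre and 288, 320 and 304 in N-cre;Fox1 mice. The groups covered the same range, and the highest mouse exceeded the lowest by 1.11-fold, the narrowest spread of the 10 genes. Its log2 fold change was 0.01 (SE 0.101, adjusted p = 0.996, edgeR's quasi-likelihood test). The count was divided between the coding isoforms Tdo2-201 (69.9% on average over 6 mice) and Tdo2-204 (20.0%) and the noncoding Tdo2-203 (8.60%). Tdo2-204 has no base that is not in another isoform and has 154 nt in place of 1855 nt in the last exon, so its share rests on how RSEM divided the reads. The shares of Tdo2-201, Tdo2-203 and Tdo2-204 differed between the groups by -0.72, 1.52 and -0.18 percentage points, with p = 1.00, 0.400 and 1.00 in two-sided exact permutation tests. With single mice left out these differences ranged from -3.96 to 3.14, 0.19 to 3.06 and -3.70 to 1.75 points, and without the 2 mice with high choroid plexus markers they were -4.80, 3.80 and 1.38 points. With 3 mice against 3 the smallest p such a test can give is 0.1. Of 12 genes listed for the kynurenine pathway only 7 passed the filter, and 0 of them passed the test, with 2 above and 5 below 0. The list also held Tph2, a tryptophan hydroxylase gene outside that pathway, which was among those below 0 at -0.06. The pathway's enzymes Kmo, Kynu and Haao had normalized counts of 0.0 to 13.1 in these mice and were not tested.

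Dsp (chr13:38151294-38198577, plus strand) had the lowest fold change of the mature genes. It encodes desmoplakin, which ties intermediate filaments to desmosomes in epithelia and heart and marks granule cells within the hippocampus. Its counts were 2324, 2824 and 2695 in N-cre and 2926, 1866 and 1930 in N-cre;Fox1 mice. N-cre;Fox1 replicates 2 and 3 lay below all N-cre mice, while replicate 1 lay above them. Dsp had a log2 fold change of -0.22 (SE 0.219) and a 95% interval of -0.81 to 0.36 (adjusted p = 0.943, edgeR's quasi-likelihood test). Without N-cre;Fox1 replicate 1 it was -0.46 with an adjusted p of 0.146 in edgeR's quasi-likelihood test, without replicate 2 or 3 of that group it was -0.10 or -0.13, and without the 2 mice with high choroid plexus markers it was -0.08.

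**Figure D1:**
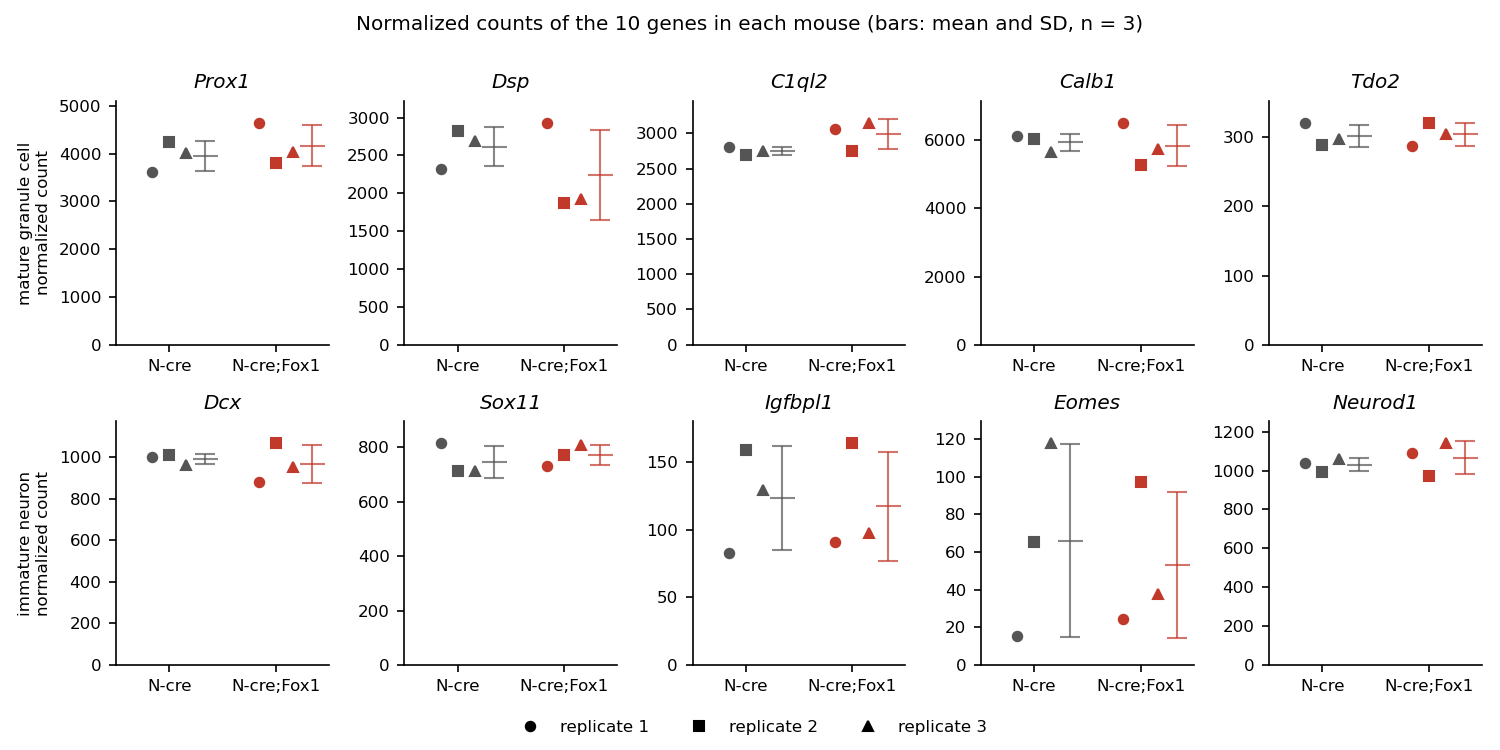
Normalized counts (y axes, from 0) of the 5 mature granule cell genes (upper panels) and the 5 immature neuron genes (lower panels) in each mouse of both groups (n = 3 each), with 1 symbol per mouse and the mean and SD beside them. The groups overlap in all 10 panels, and the spread is widest for Eomes, at 15.5 to 118.

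Dsp was read as 2 coding isoforms that differ at a splice site. Dsp-201 (9592 nt) encodes 2883 codons and Dsp-202 (7761 nt) encodes 2284 codons. In Dsp-201 exon 23 spans chr13:38191361-38193655, and in Dsp-202 it stops at 38191858, so that 498 of its 2295 nt remain. Exon 24 (chr13:38194696-38198577) follows in each. The shortened exon belongs to the part that encodes the rod of desmoplakin. The exon junctions, which tell the isoforms apart, are shown with the last 15 bases of exon 23 in lower case and the 15 bases of exon 24 that follow in capitals, from GENCODE M21 transcripts (mm10):
Dsp-201: aagcaggctttagagGCATCTAATAGGATC
Dsp-202: aatgagctggcaaagGCATCTAATAGGATC

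The share of Dsp-201 in the count of Dsp was 46.8%, 46.2% and 47.8% in N-cre and 53.4%, 58.5% and 41.4% in N-cre;Fox1 mice. The N-cre mice lay within 2 points of each other, while the N-cre;Fox1 mice lay on either side of them. Wilson 95% intervals were 39.3% to 43.5% in N-cre;Fox1 replicate 3 and 56.3% to 60.6% in replicate 2. These intervals take every read pair of Dsp as telling the isoforms apart. Many pairs fit both isoforms, so the counting error of the share is larger than the intervals show. The means were 46.9% ± 0.800 (SD, n = 3) and 51.1% ± 8.77 (SD, n = 3), a difference of 4.17 points with p = 0.400 in a two-sided exact permutation test. This difference was 0.48 points without N-cre;Fox1 replicate 2, 9.02 without replicate 3 of that group and 0.91 without the 2 mice with high choroid plexus markers. Normalized counts of Dsp-202 were 1239, 1522 and 1407 in N-cre and 1363, 775 and 1129 in N-cre;Fox1 mice. N-cre;Fox1 replicates 2 and 3 lay below all N-cre mice, and the log2 fold change was -0.35 (SE 0.208, adjusted p = 0.990, edgeR's quasi-likelihood test over all isoforms). All bases of Dsp-202 are also in another isoform, and 1831 nt are in Dsp-201 alone, so the division rests on the junction and on the coverage of the longer exon.

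Other desmosome genes gave 4 log2 fold changes above and 5 below 0 among 9 tested of 11, and 0 passed. The plakophilin Pkp2 had the same order of mice as Dsp within the N-cre;Fox1 group, at 2109, 1610 and 1768, beside 1807 to 1986 in N-cre mice. This order was not particular to desmosome genes, since Prox1, Calb1, Bcl11b and Neurod2 had it too. The armadillo protein Jup, or plakoglobin, had a log2 fold change of 0.03. The desmocollin Dsc3 was at 107 to 142 in N-cre against 75.4 to 118 in N-cre;Fox1 mice, with a log2 fold change of -0.37 and an adjusted p of 0.820 in edgeR's quasi-likelihood test.

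Immature neuron genes come next. Dcx (chrX:143855842-143933311, minus strand) encodes doublecortin, a microtubule-binding protein of migrating and immature neurons. Its counts were 1000, 1014 and 966 in N-cre and 883, 1068 and 953 in N-cre;Fox1 mice. N-cre;Fox1 mice held the highest and the lowest value, and the N-cre mice lay between them. On the log2 scale Dcx differed by -0.04 (SE 0.0726), with a 95% interval of -0.20 to 0.12 (adjusted p = 0.975, edgeR's quasi-likelihood test). Dcx-201 held 99.8% to 100% of the count in every mouse. Dcx-202, Dcx-203 and Dcx-206 were listed at 0 in all mice, as was Dsp-203. Where reads can be told apart, a count of 0 allows up to 3 counts per library. That is 0.256% to 0.407% of the count of Dcx and 0.101% to 0.146% of that of Dsp. No base of Dcx-202 or Dcx-203 is in that isoform alone. Their 0, and with it the share of Dcx-201, thus rests on how RSEM divided the reads. The kinase paralogue Dclk1 had a log2 fold change of 0.03, and Dclk2 and Dclk3 of -0.07 and -0.08. Among 9 genes of the doublecortin family and its partners 7 were above and 2 below 0, and 0 passed.

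Sox11 (chr12:27334264-27342574, minus strand) encodes a transcription factor of newborn neurons. Its counts were 815, 712 and 713 in N-cre and 733, 774 and 810 in N-cre;Fox1 mice. All N-cre;Fox1 mice lay within the range of the N-cre mice. Sox11 had a log2 fold change of 0.05 (SE 0.0761, adjusted p = 0.970, edgeR's quasi-likelihood test). Its paralogue Sox4 had counts of 775 to 869 in N-cre against 769 to 862 in N-cre;Fox1 mice, with a log2 fold change of 0.03.

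Neurod1 (chr2:79452521-79456751, minus strand) encodes a basic helix-loop-helix factor that immature granule neurons need in order to survive. Its counts were 1038, 993 and 1061 in N-cre and 1089, 971 and 1140 in N-cre;Fox1 mice. The N-cre;Fox1 mice lay on either side of the N-cre mice, and the log2 fold change was 0.05 (SE 0.0679, adjusted p = 0.964, edgeR's quasi-likelihood test). Its single annotated isoform shares 201 nt of exon with Cerkl on the same strand, which had counts of 118 to 238, so a part of its reads could belong to Cerkl. The related factors Neurod2 and Neurod6, which remain on in mature neurons of hippocampus and cortex, had log2 fold changes of 0.00 and -0.03.

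Igfbpl1 (chr4:45809468-45826923, minus strand), a relative of the IGF-binding proteins, is expressed in newborn neurons. Its counts were 82.4, 159 and 130 in N-cre and 90.7, 164 and 97.9 in N-cre;Fox1 mice. Each group held a mouse near the lower and a mouse near the upper end, and the highest mouse exceeded the lowest by 1.99-fold. Igfbpl1 had a log2 fold change of -0.06 (SE 0.307, adjusted p = 0.992, edgeR's quasi-likelihood test). Eomes (chr9:118478212-118486132, plus strand) encodes the T-box factor Tbr2 of intermediate progenitors and is also expressed in Cajal-Retzius cells. It had the lowest counts of the 10 genes, at 15.5, 65.2 and 118 in N-cre and 24.6, 97.4 and 37.7 in N-cre;Fox1 mice. The highest mouse exceeded the lowest by 7.62-fold, and all N-cre;Fox1 mice lay within the range of the N-cre mice. For Eomes the log2 fold change was -0.27 (SE 0.901), with a 95% interval of -2.64 to 2.11 (adjusted p = 0.986, edgeR's quasi-likelihood test), an interval that holds changes of several fold in either direction.

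The mice with the highest Eomes counts, N-cre replicate 3 and N-cre;Fox1 replicate 2, were the mice with high choroid plexus markers. All 6 of 6 markers were high in these mice. Ttr, or transthyretin, was at 111008 and 251900 beside 274 to 672 in the other 4 mice, and Kl, or klotho, was at 4399 and 7897 beside 956 to 1078. The summed level of the list was 1411 to 119306 in N-cre against 1464 to 268663 in N-cre;Fox1 mice. Without these mice the log2 fold change was -0.30 for Eomes and -0.33 for Igfbpl1, and neither passed in edgeR's quasi-likelihood test (adjusted p = 0.994 and 0.966). The lowest Eomes counts were in the 2 mice with high Xist counts, which were also lowest for Igfbpl1 and for Calb2 (1325 and 1557 beside 2069 to 2258), a calretinin gene of immature neurons, mossy cells and interneurons that was chosen after its values were seen. The 6 markers of Cajal-Retzius cells had summed counts of 5247 to 5482 in N-cre against 5371 to 5697 in N-cre;Fox1 mice, none at 0 in any mouse. Most of this sum was Reln, also listed for interneurons, at 3325 to 3748. Trp73 was at 266, 320 and 433 in N-cre and 261, 459 and 318 in N-cre;Fox1 mice. Its 2 lowest and 2 highest values were in the same mice as those of Eomes. Lhx1 and Ndnf were also lowest in the 2 mice with high Xist counts, while Lhx5, Nhlh2 and Reln were not. The 6 Dlx and Sp genes listed for subventricular neuroblasts summed to 2719 to 3133 in N-cre against 2457 to 3209 in N-cre;Fox1 mice. The 2 lowest sums were in the 2 mice with high Xist counts. Which cells these counts came from cannot be told from whole hippocampus. The part of these values in the spread of Eomes and Igfbpl1 was not tested.

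**Figure D2:**
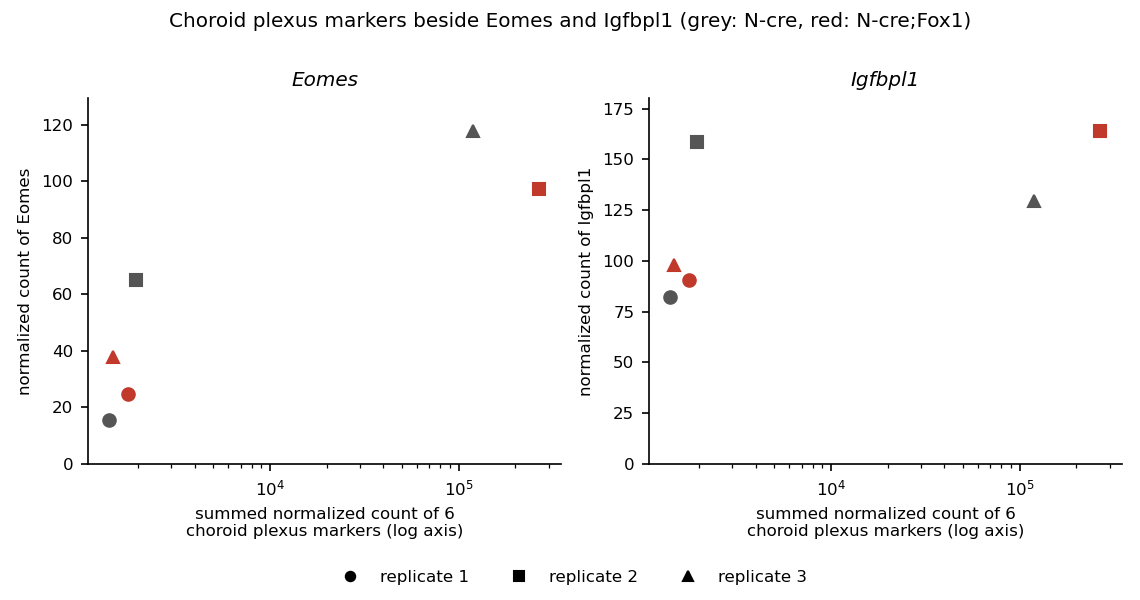
Normalized counts of Eomes (left) and Igfbpl1 (right) in each mouse (y axes, from 0) against the summed normalized count of 6 choroid plexus markers (x axes, log scale), with N-cre mice in grey and N-cre;Fox1 mice in red. The markers reach 119306 and 268663 in 2 mice and stay at or below 1939 in 4, among which Eomes ranges from 15.5 to 65.2.

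The isoforms of Igfbpl1 gave the only shares, of the 9 compared, that did not overlap between the groups. They are 2 complementary shares and thus 1 observation, and among all 25850 isoform shares of at least 5% in tested genes 11.1% did not overlap. Igfbpl1-201 is the coding isoform, and Igfbpl1-202 is a noncoding processed transcript of 747 nt whose last exon (chr4:45813007-45813550) runs 386 nt beyond an exon of Igfbpl1-201 into the intron. The share of Igfbpl1-202 was 7.03%, 8.85% and 5.17% in N-cre and 11.7%, 14.8% and 10.8% in N-cre;Fox1 mice. All 3 N-cre;Fox1 mice thus lay above every N-cre mouse. The means were 7.02% ± 1.84 (SD, n = 3) and 12.4% ± 2.07 (SD, n = 3), a difference of 5.41 points with p = 0.1 in a two-sided exact permutation test, which no result of this design can go below. The share rests on 5 to 27 read pairs per mouse, and the Wilson 95% intervals of single mice, such as 3.58% to 14.3% in N-cre replicate 1 and 6.41% to 18.3% in N-cre;Fox1 replicate 3, overlapped. Without the 2 mice with high choroid plexus markers the difference was 3.32 points. The normalized count of Igfbpl1-202, at 5.81 to 14.1 in N-cre against 10.6 to 24.2 in N-cre;Fox1 mice, overlapped, with a log2 fold change of 0.79 and an adjusted p of 0.990 in edgeR's quasi-likelihood test over all isoforms. Eomes-201 held 77.8% to 100% of the count of Eomes, and its share differed by 1.42 points (p = 0.9, two-sided exact permutation test). The sign turned with the mice included, from 7.94 points without N-cre replicate 2 to -3.15 without N-cre replicate 3 and -5.11 without the 2 mice with high choroid plexus markers. The share test was run on 9 isoforms of Dsp, Tdo2, Igfbpl1 and Eomes without adjustment over them, and none could pass a threshold of 0.05.

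**Figure D3:**
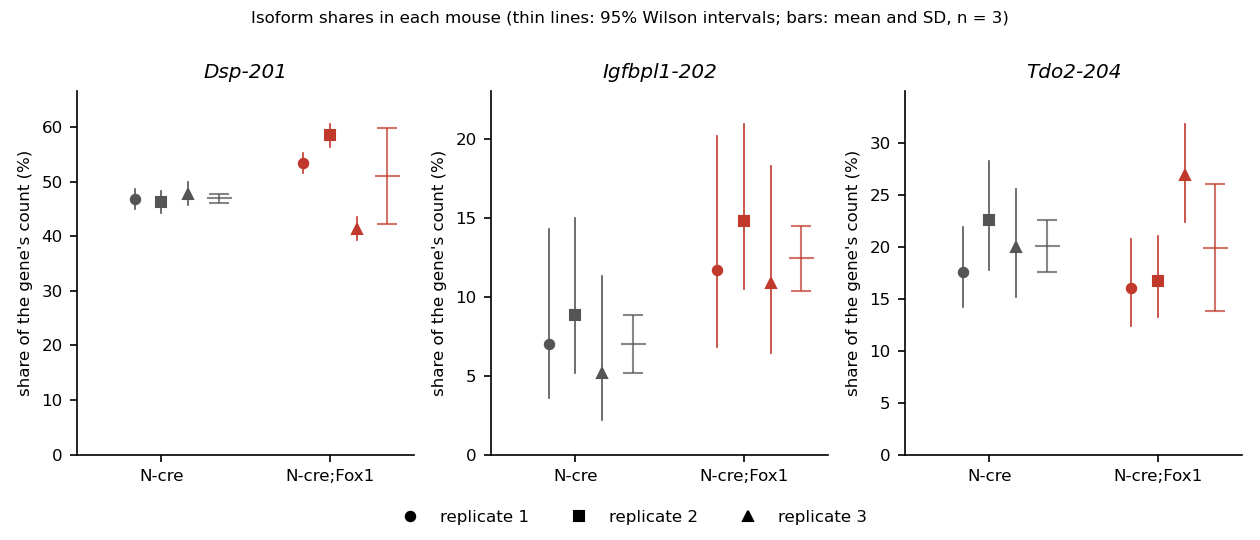
Share of Dsp-201, Igfbpl1-202 and Tdo2-204 in the count of their gene (y axes, percent, from 0) in each mouse of both groups (n = 3 each), with the mean and SD beside the symbols. Thin lines are Wilson 95% intervals that take every read pair of the gene as telling its isoforms apart. Dsp-201 lies at 46.2% to 47.8% in N-cre but spreads from 41.4% to 58.5% in N-cre;Fox1 mice, and Igfbpl1-202 lies higher in all N-cre;Fox1 mice.

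Summed over genes, the mature and the immature markers and their ratio overlapped between the groups. The 5 mature genes summed to 15188, 16090 and 15419 normalized counts in N-cre and 17423, 14029 and 15169 in N-cre;Fox1 mice. N-cre;Fox1 replicate 1 was highest and replicate 2 lowest, on either side of the N-cre mice. The means were 15566 ± 469 (SD, n = 3) and 15541 ± 1727 (SD, n = 3). The 5 immature genes summed to 2951, 2942 and 2987 in N-cre, against 2821, 3074 and 3038 in N-cre;Fox1 mice, with means of 2960 ± 23.7 and 2978 ± 137 (SD, n = 3). Here N-cre;Fox1 replicate 1 was lowest and replicate 2 highest, the reverse of the mature sum. The immature sum was therefore 16.2%, 21.9% and 20.0% of the mature sum in the N-cre;Fox1 mice, beside 19.4%, 18.3% and 19.4% in the N-cre mice. The means of 19.0% ± 0.644 and 19.4% ± 2.91 (SD, n = 3) overlapped, and no test was run on these sums. Calb1 and Prox1 made up 37.9% and 26.1% of the mature sum on average over 6 mice, and Neurod1 and Dcx made up 35.4% and 33.0% of the immature sum, so the sums mostly follow these genes. Eomes and Igfbpl1, the genes with the widest spread, made up 1.99% and 4.05% of the immature sum. Per kilobase of isoform length, Neurod1 (384) lay above the mature genes Dsp (284) and Tdo2 (149). Whether the reads of Neurod1 came from immature neurons alone was not tested. The ratio is therefore one of marker counts and not of cells.

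**Figure D4:**
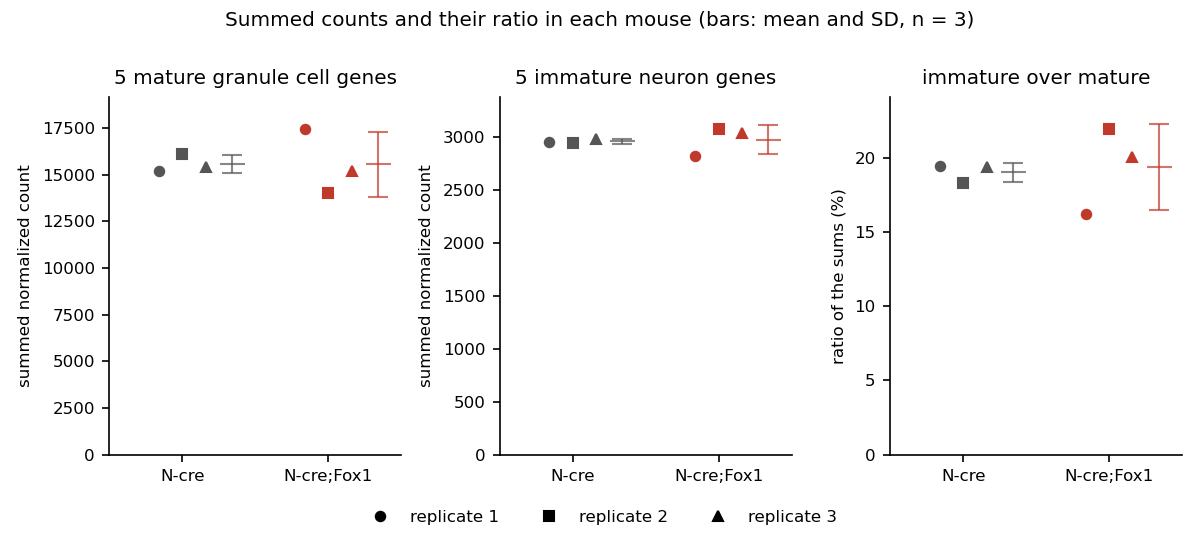
Summed normalized counts of the 5 mature granule cell genes and of the 5 immature neuron genes, and their ratio in percent (y axes, from 0), in each mouse of both groups (n = 3 each), with the mean and SD beside the symbols. N-cre;Fox1 replicate 1 has the highest mature sum (17423) and the lowest ratio (16.2%), and replicate 2 has the lowest mature sum (14029) and the highest ratio (21.9%).

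Levels can be compared between genes per kilobase of isoform length. On this scale, normalized counts per kilobase, Calb1 (1510 ± 143, SD over 6 mice) and C1ql2 (1435 ± 94.3) were highest, and their ranges over mice overlapped. Prox1 followed at 519 ± 44.2, then Neurod1 at 384 ± 22.8, Dsp at 284 ± 53.6 and Tdo2 at 149 ± 7.15, each with a range apart from its neighbours. The remaining immature genes came last. Dcx (108 ± 6.83) and Sox11 (91.4 ± 5.62) overlapped in range, as did Igfbpl1 (53.9 ± 17.8) and Eomes (17.6 ± 12.5). Thus on this scale 4 of the 5 immature neuron genes lay below all 5 mature genes, and Neurod1 lay among them. The scale divides each isoform's count by its own length, so short isoforms weigh more. The noncoding Tdo2-203 (612 nt) held 8.60% of the count of Tdo2 but 34.4% per effective length. The place of Tdo2 above Dcx therefore depends on how RSEM divided the reads of Tdo2 between isoforms.

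Further genes of the lineage gave no call either. Of 20 other granule cell markers, 10 were above and 10 below 0, with a median log2 fold change of 0.00. The groups did not overlap for 3 of the 20, beside 12.1% of all genes. Trpc6, a cation channel gene, had counts of 705 to 771 in N-cre against 867 to 938 in N-cre;Fox1 mice, a log2 fold change of 0.29 and an adjusted p of 0.477 in edgeR's quasi-likelihood test. Maml2, a Notch coactivator, had a log2 fold change of -0.14, and Bcl11b, a transcription factor of granule cell maturation, of -0.07. Of 18 other genes listed for immature neurons, 6 were above and 12 below 0, with a median of -0.02. This list is not confined to immature neurons, since it holds Neurod2 and Neurod6, which remain on in mature neurons. Mean counts were 6644 for Neurod2, 9431 for Neurod6, 14256 for Tubb3 and 16367 for Stmn2. Sox4 of the same list was at 819, beside 981 for Dcx. Stmn1, which encodes the microtubule regulator stathmin, had a log2 fold change of -0.09, Marcksl1 of -0.07, and Cd24a, a surface protein of neuroblasts, of 0.12. Among 20 transcription factors of the lineage 11 were above and 9 below 0, with Emx2 at 0.19 and Tbr1, which follows Eomes in the lineage, at -0.14.

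Upstream stages lay higher in N-cre;Fox1 mice for some genes, though none passed in edgeR's test with the filter on low counts. Of 16 genes of radial glia-like stem cells, 12 were above and 4 below 0, with a median log2 fold change of 0.15 beside 0.00 over all genes tested. The groups did not overlap for 4 of the 16, beside 12.1% of all genes. Gfap, the intermediate filament of astrocytes and of these stem cells, had counts of 24304, 23597 and 22722 in N-cre and 34277, 28026 and 29773 in N-cre;Fox1 mice. All N-cre;Fox1 mice lay above all N-cre mice, with a log2 fold change of 0.38 (SE 0.0700) and an adjusted p of 0.320 in edgeR's quasi-likelihood test. Nes, the gene of nestin, had counts of 710, 724 and 788 in N-cre and 899, 1039 and 937 in N-cre;Fox1 mice, with a log2 fold change of 0.37 and an adjusted p of 0.330 in edgeR's quasi-likelihood test. Under DESeq2's Wald test the adjusted p was 3.0e-06 for Gfap and 0.0219 for Nes, and in edgeR's quasi-likelihood test without the filter on low counts it was 0.00788 and 0.0221, so these calls depend on the tool and on the filter. The summed level of the 16 genes was 72618 to 73650 in N-cre against 79231 to 87705 in N-cre;Fox1 mice. Without Gfap it was 48313 to 50723 and 50102 to 53428, and the groups overlapped.

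Gfap and Slc1a3, the most abundant genes of that list, are also expressed by astrocytes. The 6 astrocyte markers, none at 0 in any mouse, had summed counts of 165612 to 175485 in N-cre against 175204 to 185204 in N-cre;Fox1 mice. Of these 6 markers, 4 were above and 2 below 0, and the groups did not overlap for 3, beside 12.1% of all genes. Their part in the level of the stem cell list was not tested. Of 16 genes of cycling progenitors, 11 were above and 5 below 0, with a median of 0.04. The groups did not overlap for 6 of the 16, beside 12.1% of all genes. Rrm2 alone of these 6 was lower in N-cre;Fox1 mice, at 61.1 to 67.4 against 74.6 to 81.7 in N-cre mice. Ccnd2, the cyclin of these progenitors and of other cells, had counts of 4885 to 5186 in N-cre against 5289 to 6041 in N-cre;Fox1 mice, with a log2 fold change of 0.19 and an adjusted p of 0.636 in edgeR's quasi-likelihood test. Mcm2, a replication helicase subunit, had a log2 fold change of 0.21. Mki67, the proliferation marker, had counts of 91.6 to 110 in N-cre against 84.7 to 113 in N-cre;Fox1 mice. The summed level of the 16 genes was 8977 to 9270 in N-cre against 9766 to 10131 in N-cre;Fox1 mice, and without Ccnd2 it was 3995 to 4235 and 4090 to 4477, which overlapped.

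**Figure D5:**
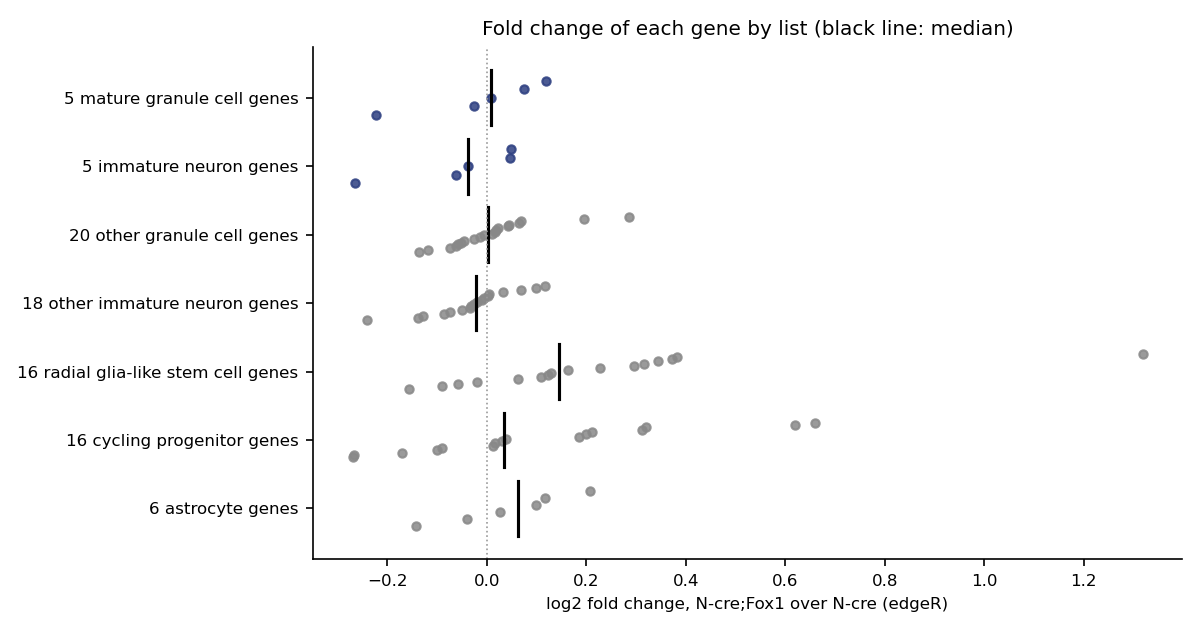
Log2 fold change of N-cre;Fox1 over N-cre mice from edgeR (x axis) of each gene, by list (y axis), with the 10 genes described here in blue, genes of other lists in grey and a black line at each median. The medians are 0.01 and -0.04 for the mature and immature genes, and 0.00 and -0.02 for further genes listed for these stages. They are 0.15 and 0.04 for stem cell and cycling genes, and 0.06 for astrocyte genes.

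Neighbouring cells of the hippocampus are given for comparison. The mossy cell markers had summed counts of 2117 to 3181 in N-cre against 2298 to 3065 in N-cre;Fox1 mice. For the 7 CA3 markers these sums were 15792 to 16459 and 15887 to 16365. All 7 CA1 markers lay below 0, with a median of -0.07, a range of -0.35 to -0.01 and 0 passing, and their summed counts were 44561 to 48757 in N-cre against 40566 to 45152 in N-cre;Fox1 mice. With the filter on low counts and all 6 mice, no gene of the 29 lists passed in edgeR's quasi-likelihood test.

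The element that Rbfox proteins bind was looked for in the main isoform of each gene, as TGCATG on the strand of the transcript, in GENCODE M21 (mm10). It was absent from C1ql2, Calb1 and Eomes, occurred 1 time in Prox1 and in Tdo2, 2 times in Dsp, Igfbpl1 and Neurod1, and 4 times in Dcx and Sox11. Of coding transcripts within 10% of the same length, 89.9% hold it for the length of Dcx, 89.0% for Sox11, 87.5% for Prox1, 87.7% for Dsp-202 and 41.8% for C1ql2. All matches in Dcx, Sox11, Igfbpl1, Neurod1 and Prox1 lay after the coding part, and those in Dsp and Tdo2 lay in coding sequence. The matches of the mature genes and of Dcx are shown as windows of 30 bases with the element in capitals. Their positions are those of the element, at chr1:190121979-190121984 for Prox1-202, chr13:38182284-38182289 and chr13:38197538-38197543 for Dsp-202, chr3:81960544-81960549 for Tdo2-201, and chrX:143862108-143862113, chrX:143860914-143860919, chrX:143857065-143857070 and chrX:143856801-143856806 for Dcx-201, in this order:
Prox1-202: acctcctacacgTGCATGctaactatcgct
Dsp-202: tcttggcactacTGCATGattgacatcgag
Dsp-202: ttgacccggaagTGCATGggaggatcagca
Tdo2-201: tataatcatgtgTGCATGgtgcacagaatg
Dcx-201: aggtgaaagccaTGCATGccaattctgtgt
Dcx-201: tcaagttcagcgTGCATGgtcagcaagcat
Dcx-201: gtacccagctaaTGCATGgtttcagagtgg
Dcx-201: ttggagagtaaaTGCATGgtcttgtacatc

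These matches are a description of the letters and not of binding. Introns and the other isoforms of these genes were not searched, and a relation between the matches and the fold changes was not tested.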

How the data were processed

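Per the labels and the study's methods, total RNA of whole hippocampi from 3 N-cre and 3 N-cre;Fox1 mice, named as biological replicates, was made into strand-specific libraries and read in pairs of 150 bases. After trimming (Cutadapt 1.18) and alignment to mm10 (STAR 2.5.2b), the authors deposited expected counts per isoform from RSEM 1.3.0 on GENCODE M16, neither normalized nor filtered. RSEM divides reads shared by isoforms, so isoform values carry an error that sums over a gene do not.

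Expected counts were rounded, summed by gene symbol and filtered with filterByExpr (minimum count 10, minimum total 15). Genotypes were compared with edgeR 4.0.16's quasi-likelihood test (robust, TMM, R 4.3.3), Benjamini-Hochberg adjustment over all genes or isoforms and a threshold of 0.05. The study's EBSeq was not installed. Standard errors are the log2 fold change over the root of the F statistic, and intervals use its degrees of freedom. Isoform shares were compared with exact permutation tests (SciPy 1.17.1), with Wilson intervals at 95% over all read pairs of a gene. Isoforms were matched by identifier to GENCODE M21 on mm10, which held 130826 of 133944 and all 27 used here. The fits were tested on simulated data.

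The 10 genes and 29 lists were chosen with earlier results of these data known. Named are the 10 genes, their isoforms with a mean count of at least 10, genes of lists that passed, up to 3 genes per direction and list with the largest change at a mean count of at least 100, and partners of the 10 genes. Further genes are named as values beside these. A gene of the lists is not reported here. Depth was 40463587 to 62141336 read pairs. Counting error adds to the spread between mice for genes of low counts such as Tdo2, Igfbpl1 and Eomes. Alternatives were other normalizations, filters, DESeq2 1.42.0, limma-voom (limma 3.58.1), unrounded counts, the replicate number as a block, means of log2 levels, shares per effective length (length minus 200 nt), each mouse left out, and, added later, both mice with high choroid plexus markers left out.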

Additional observations from a re-analysis of the deposited data

How the results depend on the processing

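No member gene or isoform passed under any of the 15 alternatives to the fits, and the sums moved by less than their spread between mice under all 11. The mature sum had a log2 difference of -0.0077 (0.06 without the 2 mice with high choroid plexus markers). For the immature sum it was 0.01 (-0.0024 with upper quartile normalization, -0.0093 without these mice) and for the ratio 0.02 (-0.07 without them). With single mice left out the mature sum's difference ranged from -0.093 to 0.063 and the immature sum's from -0.016 to 0.046. That of the ratio ranged from -0.079 to 0.14, the highest without N-cre;Fox1 replicate 1. Genes of the lists that passed numbered 0, but 3 without the filter and with DESeq2 (Gfap, Nes, Aqp4), and 1 without the 2 mice with high choroid plexus markers or without N-cre;Fox1 replicate 2 alone, a range of 0 to 1 with single mice left out. Over all genes 5 passed, beside 45 without the filter, 50 with DESeq2 and 2 to 29 with single mice left out, the highest without N-cre;Fox1 replicate 1 (2 and 3 without N-cre replicates 2 and 3, 3 without N-cre;Fox1 replicate 3). Of isoforms 0 passed, beside 10 without the filter, 6 with at least 10 counts in every mouse, 215 with DESeq2 and 1 without rounding. Signs of log2 fold changes near 0 turned: Calb1 to 0.011 and Tdo2 to -0.041 without the 2 mice with high choroid plexus markers, Tdo2 to -0.00089 with upper quartile normalization, and Eomes to 0.064 with limma-voom. With each mouse left out the ranges were -0.0048 to 0.14 for Prox1, -0.10 to 0.045 for Calb1, -0.028 to 0.059 for Tdo2, -0.11 to 0.029 for Dcx, 0.013 to 0.12 for Sox11, -0.38 to 0.16 for Igfbpl1, -1.03 to 0.46 for Eomes and -0.00036 to 0.12 for Neurod1. Per effective length the share difference was 4.78 points for Tdo2-203 and 14.0 for Igfbpl1-202. The cause of these changes was not tested. With the replicate number as a block, 0 genes and 0 isoforms passed, and C1ql2 had a log2 fold change of 0.12 (adjusted p = 0.878, edgeR's quasi-likelihood test). Correlations of the deviations of equally numbered mice were 0.378, -0.0951 and -0.211. With so few mice such values cannot tell whether the numbers pair the mice. The intervals of Eomes and Igfbpl1 are the widest, which limits what these 6 mice can show.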
